A study of Mus musculus with 18 samples.

Results

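The 9 genes described here encode the proteins that carry the light response of rods from the visual pigment to the membrane current and then shut it off. They are Gnat1, Pde6a, Pde6b, Pde6g, Cnga1, Cngb1, Sag, Rcvrn and Grk1, taken from 21911 protein-coding genes of the GENCODE M21 annotation of the mm10 mouse genome. For each gene a window was drawn from 10 kb upstream of the gene start to the gene end, and every ATAC-seq peak that overlapped the window by at least 1 bp was collected. The windows held 936 of the 911837 peaks listed in the 18 libraries of the series. After peaks that overlapped between libraries were merged, they held 100 regions, of which 76 were called in at least 2 libraries and are termed consensus regions (of 73567 in the whole series), while 24 were called in 1 library.

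ATAC-seq marks open chromatin, because a transposase inserts sequencing adapters where DNA is accessible, and a peak is an interval where the insertions of that library pile up over its own background. All libraries were made from bulk retina of wild-type mice, with C57BL/6J named for the animals of the study, and they formed 6 groups of 3. At each of 2 ages, 3 months (3mo) and 18 months (18mo), the groups were eyes held for 1 hour at an intraocular pressure (IOP) raised to 30 mmHg, the opposite eyes without pressure (contralateral), and eyes of untreated animals. The labels put the pressure-treated and contralateral eyes at day 2, while the study's text gives a later day for this assay, so the time point is uncertain. The shared treatment text also names dasatinib or vehicle injections, but no label assigns a library to either, and contralateral eyes came from animals whose other eye was treated, so they limit the control to the eye and not the animal. Replicate numbers are not tied to animals, so p-values measure the spread between these libraries.

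In rods, light-activated visual pigment switches on transducin, whose alpha subunit is Gnat1. Transducin relieves the inhibitory subunit Pde6g from the catalytic pair Pde6a and Pde6b, the phosphodiesterase hydrolyses cyclic GMP, and the cyclic GMP-gated channel of Cnga1 and Cngb1 subunits closes. Recovery requires phosphorylation of the pigment by the kinase Grk1, which the calcium sensor Rcvrn (recoverin) restrains in the dark, and capping by the arrestin Sag. In the mouse retina rods are by far the most numerous cells, and their genes are controlled mainly by the homeodomain factors Crx and Otx2, the leucine zipper factor Nrl and the nuclear receptor Nr2e3.

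In mm10, the transducin gene Gnat1 lies at chr9:107674474-107679712 on the minus strand. The phosphodiesterase genes lie at chr18:61220315-61289924 (Pde6a, plus), chr5:108388391-108432397 (Pde6b, plus) and chr11:120447605-120453500 (Pde6g, minus). The channel genes lie at chr5:72603696-72644275 (Cnga1) and chr8:95239045-95306585 (Cngb1), both on the minus strand. The shut-off genes lie at chr1:87803680-87845158 (Sag), chr8:13405081-13421951 (Grk1) and chr11:67695326-67703333 (Rcvrn), all on the plus strand. Windows measured from 15.2 kb (Gnat1) to 79.6 kb (Pde6a).

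The lists differed in length and in peak width before any gene was considered. List lengths ran from 36011 to 66160 peaks. No peak shorter than 79 to 89 bp was listed in the 6 untreated libraries, and the median width there was 161 to 192 bp. Contralateral and IOP libraries formed 2 classes, termed short (5 libraries, with shortest peaks of 114 to 122 bp and median widths of 264 to 283 bp) and long (7 libraries, 148 to 157 bp and 359 to 395 bp). No untreated library overlapped a contralateral library in this respect, so that the kind of control and the making of the list cannot be told apart wherever untreated and contralateral retinas are compared. The start site check of retinal cell types found peaks at the starts of all 10 photoreceptor transcription factor genes in all 18 libraries, and of some ganglion cell, bipolar, horizontal and Mueller glia markers, while none of 4 microglia, 3 endothelial, 3 lens and 5 non-ocular markers had a start site peak in any library. Among amacrine markers 1 of 4 had a peak at its start, in 1 library, and among 5 markers of the retinal pigment epithelium only Rgr did, in all 18.

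Every one of the 9 genes had an accessible region at or close to its start in all 18 libraries. A peak reached into the interval from 1 kb upstream to 100 bp downstream of the annotated start of 8 of the 9 genes in every library, whereas the share was 46.6% over all 21911 protein-coding genes. For Cnga1 a peak touched that interval in 7 of 18 libraries, although the merged region there (chr5:72643397-72644248) was called in all 18, because its summit lay 475 bp inside the gene in a noncoding exon. Regions are named here by the distance in bp of their median summit from the GENCODE gene start, positive into the gene. A further region of Cnga1, with its summit at +1471 (chr5:72642597-72643008), was also called in all 18 libraries and contains the start that RefSeq gives for this gene. In bulk tissue, fewer rods and less open chromatin per rod cannot be told apart.

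The start regions lay among the stronger peaks of each list but not among the strongest. Strength is given here as the percentile of a peak's −log10 q-value within its own list, 100 being the most significant. Medians over 18 libraries were 76.9 for Gnat1 (range 72.8 to 81.6), 82.5 for Pde6a (76.0 to 90.4), 86.0 for Pde6b (76.3 to 94.8), 81.7 for Pde6g (75.8 to 87.1) and 68.5 for Cnga1 (56.3 to 82.0). They were 79.0 for Cngb1 (71.2 to 84.6), 83.5 for Sag (79.3 to 88.6), 82.3 for Rcvrn (72.3 to 88.5) and 83.8 for Grk1 (80.6 to 88.8). Cnga1 was thus the weakest of the 9 and Pde6b the strongest, with ranges that met between 76.3 and 82.0, and the other 7 ranges overlapped one another. Over the 8 starts called in every library the median was 82.4, and over the 10221 protein-coding starts called in every library it was 88.9 (quartiles 80.6 and 94.6).

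Summits sat close to the annotated starts, with a few exceptions. The median summit was 3 bp upstream of the Gnat1 start, 51 bp upstream for Cngb1, 192 bp upstream for Grk1, and 1, 5, 98 and 102 bp downstream for Pde6b, Rcvrn, Pde6a and Sag. The start region of Pde6g was 2036 bp wide (chr11:120451884-120453919), and its strongest summit ranged from 43 bp upstream to 1089 bp downstream, since 2 neighbouring positions alternated as the stronger. Peaks at the starts were split in untreated lists more than in the others: the Pde6a start region held 2 or 3 peaks in each of the 6 untreated libraries, 2 peaks in 2 libraries of the 18mo contralateral group and 1 peak in the other 10. The Pde6g start region likewise held 2 or 3 peaks in untreated and 1 or 2 in all other libraries.

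**Figure D1:**
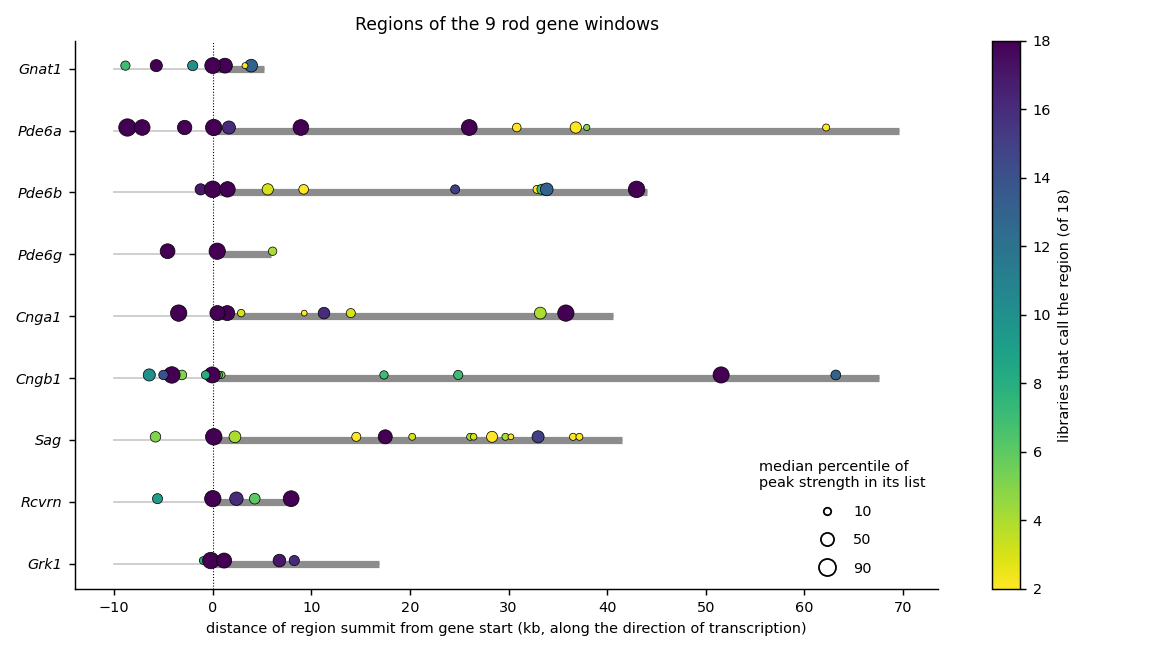
Consensus regions in the 9 windows, plotted by the distance of their median summit from the gene start in kb along the direction of transcription. Thick grey bars are genes and thin lines the 10 kb upstream; circle colour gives the number of the 18 libraries that called a region and circle area its median percentile of peak strength, so that the 27 regions called in all 18 libraries appear as large dark circles at starts and at a few other places, and regions called in few libraries as small pale ones.

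Reference sequence upstream of the starts was available for 5 of the 9 genes in the RefSeq promoter table (build GRCm38.p6), and it is printed because it lies in or beside regions called in all 18 libraries. The bases run 5′ to 3′ on the gene's strand and end at the base before the RefSeq start. Capitals mark matches on either strand to 5 short motifs that were searched, TAATCC (the core bound by Crx and Otx2), TGCTGA (a half-site of Nrl), AAGTCA (a half-site of Nr2e3), TAATTA (other homeodomain proteins) and CAGNTG (basic helix-loop-helix factors), and no 2 matches overlapped in the sequences printed here. Gnat1, Pde6a, Pde6g and Rcvrn were not matched in that table.
Sag (chr1:87803430-87803679): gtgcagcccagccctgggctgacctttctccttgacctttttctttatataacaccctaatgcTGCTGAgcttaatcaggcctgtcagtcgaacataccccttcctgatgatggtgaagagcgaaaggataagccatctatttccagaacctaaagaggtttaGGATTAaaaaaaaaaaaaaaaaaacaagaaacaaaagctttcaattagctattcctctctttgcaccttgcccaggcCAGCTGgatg
Cnga1 (chr5:72642753-72643002): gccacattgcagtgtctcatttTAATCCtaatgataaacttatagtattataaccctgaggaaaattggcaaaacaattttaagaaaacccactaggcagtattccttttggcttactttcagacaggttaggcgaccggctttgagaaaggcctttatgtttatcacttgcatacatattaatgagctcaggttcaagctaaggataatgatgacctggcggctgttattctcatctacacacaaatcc
Pde6b (chr5:108388123-108388372): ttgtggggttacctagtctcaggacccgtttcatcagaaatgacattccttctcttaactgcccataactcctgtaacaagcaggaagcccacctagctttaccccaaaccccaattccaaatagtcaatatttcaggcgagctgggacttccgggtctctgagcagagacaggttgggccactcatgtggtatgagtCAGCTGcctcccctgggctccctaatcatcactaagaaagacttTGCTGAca
Grk1 (chr8:13404831-13405080): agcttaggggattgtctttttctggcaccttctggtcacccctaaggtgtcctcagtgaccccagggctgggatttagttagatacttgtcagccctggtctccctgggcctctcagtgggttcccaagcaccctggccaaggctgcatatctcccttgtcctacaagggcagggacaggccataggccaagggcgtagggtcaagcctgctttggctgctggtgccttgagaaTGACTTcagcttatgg
Cngb1 (chr8:95306586-95306835): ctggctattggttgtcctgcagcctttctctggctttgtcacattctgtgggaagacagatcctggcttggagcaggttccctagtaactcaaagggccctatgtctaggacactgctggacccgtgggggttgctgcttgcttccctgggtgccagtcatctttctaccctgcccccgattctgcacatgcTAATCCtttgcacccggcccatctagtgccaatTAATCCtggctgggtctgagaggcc

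The Crx and Otx2 core occurred in 3 of these 5 upstream sequences, compared with 6.25% of 32851 RefSeq promoters of the same length. Counted with -1 as the base before the start, it began at -87 in Sag (on the opposite strand), at -228 in Cnga1 and at -58 and -25 in Cngb1. TGCTGA was present in 2 of 5 (16.1% of all promoters), at -187 in Sag and at -8 in Pde6b. AAGTCA was present in 1 of 5, at -16 in Grk1 on the opposite strand (13.1% of all promoters), CAGNTG in 2 of 5 (44.8%) and TAATTA in none of the 5 (4.84%). A match describes the letters and is not evidence that a factor binds there.

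The same core was frequent in the regions that every library called. In the 200 bp around the summit, TAATCC occurred in 13 of the 27 such regions of the 9 windows (48.1%), against 14.1% of the 24729 such regions scanned genome-wide. It occurred in 8 of the 49 regions of the windows that were called in 2 to 17 libraries (16.3%, against 16% of such regions genome-wide). TGCTGA followed the same order, with 9 of 27 (33.3% against 15.1%) and 6 of 49 (12.2% against 19.7%). The remaining motifs were nearer to the genome-wide shares, with CAGNTG in 13 of 27 (48.1% against 41.7%) and TAATTA and AAGTCA in 1 of 27 each (2.53% and 6.94% genome-wide). Regions of a gene are neighbours and no test was made of these shares. No share was computed for the windows of the other rod, cone or photoreceptor transcription factor genes. The shares are therefore not shown to be particular to the 9 genes.

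Beyond the starts, 18 regions were called in all 18 libraries, 8 of them in introns, 7 upstream, 2 in noncoding exons and 1 in a 3' UTR. Together with the 9 start regions they made up 27 of the 76 consensus regions (35.5%), a share near that of all consensus regions (33.6%). Their median list percentile was 74.98, compared with 82.3 for the start regions and 20.4 for the 49 regions that were not called everywhere. In the whole series the medians were 74.5 for regions called in all 18 and 23.0 for the rest. The variable regions of these windows were therefore weak peaks within their lists, 26 of them called in 2 to 5 libraries and 23 in 6 to 17.

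Each gene had its own arrangement of these regions. In Pde6a 6 regions were called in every library, and the strongest of them lay 8655 bp upstream (chr18:61211168-61211989, median list percentile 93.5). In Pde6b the strongest other region was intronic, 42977 bp inside the gene and close to its end (chr5:108430791-108431606, percentile 84.1). In Cngb1 it lay 4147 bp upstream, within the neighbouring gene Tepp (chr8:95310477-95311033, 83.7), and in Cnga1 it lay 3456 bp upstream (chr5:72647280-72648367, 82.4). Both channel genes thus carried a strong region a few kb before the start besides a constant intronic region, at +35805 in Cnga1 (81.8) and at +51549 in Cngb1 (79.9). In Rcvrn the other constant region was in the 3' UTR (chr11:67702877-67703527, 76.4), in Grk1 it was intronic at +1154 (68.0), and in Pde6g it was 4581 bp upstream (65.8). Gnat1 had 2, at +1236 in an intron (66.4) and 5725 bp upstream (41.4). All Rcvrn regions also lie within Glp2r, and the Gnat1 regions from 2035 bp upstream within Sema3f, so that these peaks cannot be assigned to a single gene. Sag, despite 14 consensus regions, had a single other region called in all libraries, at +17492 in a noncoding exon (58.1).

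Peak density varied among the genes. The 9 windows had a median of 1.3 peaks per 10 kb, the 17 other rod genes 1.68, the 10 photoreceptor transcription factor genes 1.63, the 10 cone phototransduction genes 0.748 and all 16698 occupied protein-coding windows 0.527. Gnat1 was the densest (3.28 peaks per 10 kb of a 15.2 kb window), followed by Rcvrn (2.22), Pde6g (1.89) and Grk1 (1.86), and the long genes Sag (0.874) and Cngb1 (0.903) were the sparsest. Start sites of the cone genes were called less constantly, in all 18 libraries for 3 of 10 (Gnb3, Pde6c and Arr3). For the other cone genes a start peak was listed in 16 libraries for Cnga3, 13 for Gnat2, 4 for Opn1sw, 1 for Cngb3 and none for Opn1mw, Gngt2 and Pde6h. Among the other rod genes 16 of 17 starts were called in every library and only that of Rp1 in none.

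The number of peaks in a window is given next for each gene, in the order of the cascade. Separations of untreated libraries at a single age are described only. Untreated lists also differ in peak width, and no share over all windows was computed for these separations. At 3mo, Gnat1 had 7, 6 and 6 peaks in untreated, 3, 4 and 3 in contralateral and 5, 4 and 3 in IOP retinas. At 18mo it had 6, 7 and 7 in untreated, 5, 3 and 6 in contralateral and 5, 3 and 5 in IOP retinas. The untreated libraries were high at both ages, and at 3mo they did not overlap the contralateral or IOP libraries. Pde6a ranged from 7 to 14 peaks (median 10) and Pde6g from 2 to 5 (median 3), with overlapping groups throughout. The counts of Pde6b at 3mo were 11, 8 and 9 in untreated, 5, 9 and 5 in contralateral and 6, 4 and 6 in IOP retinas. Those at 18mo were 14, 11 and 12 in untreated, 7, 7 and 7 in contralateral and 5, 7 and 3 in IOP retinas. It varied the most among the phosphodiesterase genes, and its 18mo untreated libraries lay above all other groups of that age.

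For the channel, Cnga1 ranged from 4 to 10 peaks (median 6), and at 3mo its untreated libraries (7, 7 and 7) lay above its IOP libraries (6, 5 and 5). Untreated and IOP retinas were not compared in any test, and their lists differ in peak width. Cngb1 at 3mo had 7, 5 and 13 peaks in untreated, 6, 12 and 5 in contralateral and 10, 6 and 3 in IOP retinas. At 18mo there were 9, 7 and 9 in untreated, 10, 8 and 9 in contralateral and 7, 5 and 6 in IOP retinas. Its 3mo groups overlapped widely, and at 18mo the IOP libraries lay below the contralateral ones. Of the shut-off genes Sag had the widest range, with 2 to 12 peaks (median 4.5), the 12 being in 3mo contralateral replicate 2, the longest list of the series, and the next highest count 8. Rcvrn ranged from 3 to 7 (median 4) and Grk1 from 3 to 5 (median 5).

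**Figure D2:**
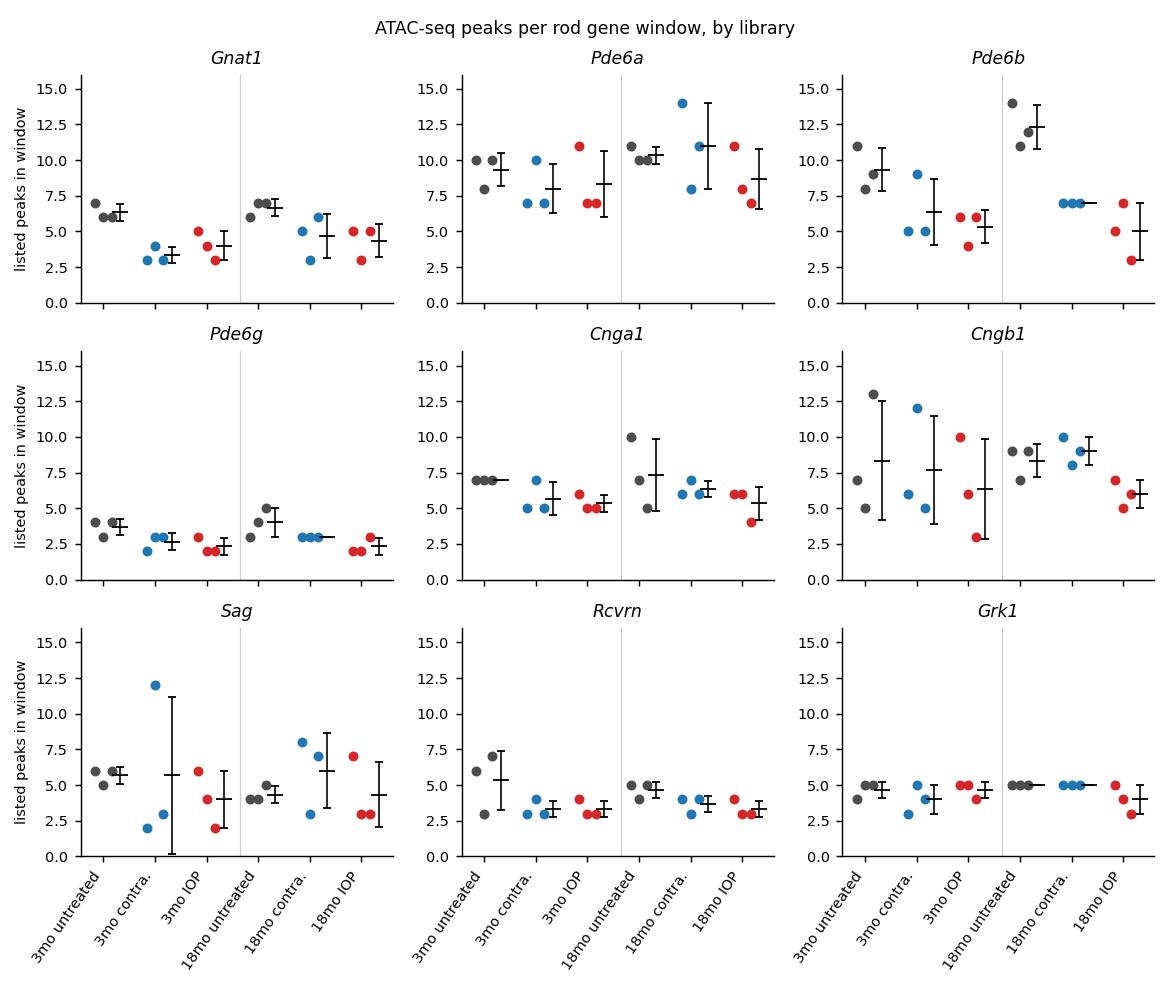
Number of listed peaks in each gene window (vertical axis) by group (horizontal axis). Points are libraries in replicate order and bars are the mean ± SD of 3 libraries; in Gnat1 and Pde6b the untreated libraries (grey) reach 7 and 14 peaks, above the contralateral (blue) and IOP (red) ones for most libraries. Cngb1 is lower in all 18mo IOP than in all 18mo contralateral libraries, as were 5.59% of all windows.

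Summed over the 9 windows at 3mo, untreated libraries had 59.7 ± 8.74 peaks, contralateral ones 46.7 ± 16.8 and IOP ones 43.7 ± 11.0 (SD, n = 3 each). At 18mo the sums were 63.0 ± 4.00, 55.7 ± 7.77 and 43.3 ± 7.77 in the same order. Per 10000 listed peaks the 18mo contralateral and IOP sums were 9.84 ± 0.566 and 9.79 ± 1.21, and with equal numbers of peaks the difference between them turned from -22.2% to +0.935%. The covered length ran the other way for the untreated group. At 3mo it was 15404 ± 1236 bp in untreated, 22087 ± 3160 bp in contralateral and 21221 ± 1297 bp in IOP retinas, and at 18mo 17930 ± 1015, 22152 ± 294 and 20032 ± 2556 bp. Untreated lists thus held more peaks on average, and narrower ones, over the same genes. The numbers overlapped, at 50 to 67 in untreated and 36 to 66 in contralateral libraries at 3mo. At 18mo they were 59 to 67 and 47 to 62. Short-class contralateral lists had means of 66 at 3mo and 60 at 18mo, and long-class ones 37 and 47. Across the 18 libraries the summed number followed the total number of peaks in the list (Pearson r = 0.850) and ran against the median peak width (r = -0.871), both as a description of lists that share their making with the groups.

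**Figure D3:**
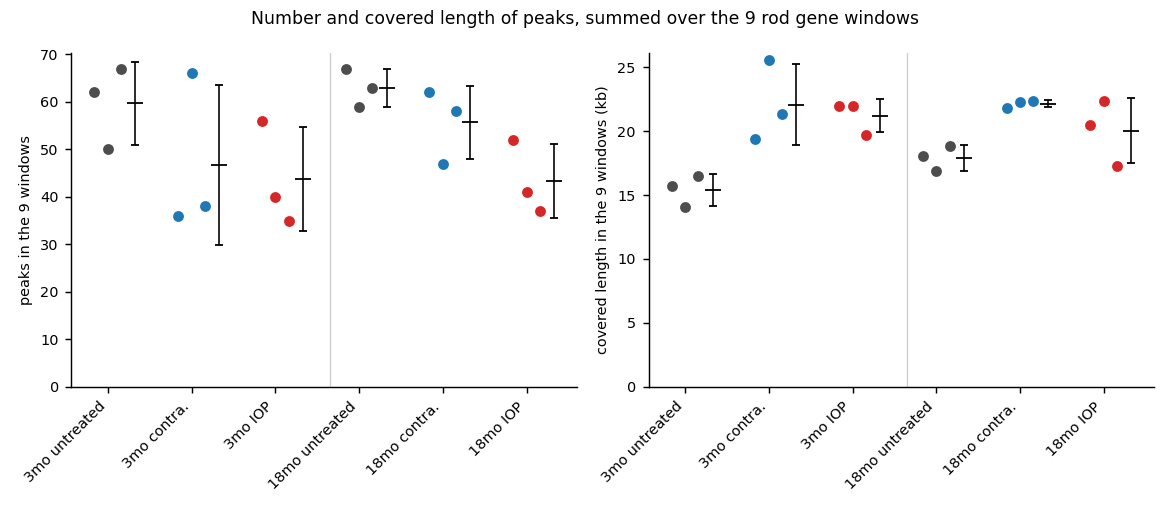
Peaks summed over the 9 windows (left) and genomic length they cover in kb (right) in each library, by group, with the mean ± SD of 3 libraries. Untreated libraries (grey) hold 50 to 67 peaks but cover 14056 to 18876 bp, while contralateral (blue) and IOP (red) libraries hold 35 to 66 peaks and cover 17291 to 25563 bp.

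Natural aging was examined by comparing the 6 control libraries of 18 months with the 6 of 3 months, 3 contralateral and 3 untreated at each age. The exact permutation test shuffled labels across both kinds of control together. The difference between the kinds therefore adds to the spread against which age was tested. None of the 9 windows differed in its number of peaks at an unadjusted p below 0.05 in the 2-sided exact permutation test, where 1.78% of 16591 windows did, and none after Benjamini-Hochberg adjustment or in limma on log2(peaks + 1). The largest difference was in Pde6a, with 10.7 peaks at 18mo and 8.67 at 3mo (difference 2.00, exact permutation p = 0.0887, adjusted p = 1.00). Sag and Rcvrn had slightly fewer peaks at 18mo (differences -0.50 and -0.17), the other 7 more, and the median difference over the 9 was 0.667 against 0.00 over all windows. The contralateral controls comprised 1 short-class and 2 long-class libraries at 3mo, but 2 and 1 at 18mo. Short-class lists held more peaks in these windows than long-class lists, and the part of this in the age differences was not tested. Among the 12 consensus regions of the windows whose calls could reach a p below 0.05 none did in Fisher's exact test (3.58% of 9868 regions in the series), the smallest exact p being 0.242. The starts and the other constant regions were called in all control libraries of both ages by their definition.

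Exposure to IOP was compared with the contralateral eyes at each age. At 3mo no window had fewer or more peaks in every IOP than in every contralateral library (0.323% of 16080 windows were lower in this sense, and the smallest p that 3 libraries against 3 allow is 0.1). At 18mo 1 of 9 was lower, Cngb1, where 5.59% of 16220 windows were. Cngb1 had 6.0 ± 1.0 peaks after IOP and 9.0 ± 1.0 in contralateral retinas (SD, n = 3), which is the largest separation that 3 libraries against 3 can give (exact permutation p = 0.1, the smallest possible). The covered length of Cngb1 was separated as well, at 3051, 2500 and 2886 bp in the contralateral libraries and 2240, 2006 and 2444 bp after IOP, again 1 of 9 members and against 14.0% of windows. Of the 17 other rod genes 4 were separated in the same direction, Gnb1 (8.00 against 12.7 peaks), Rgs9 (5.33 against 8.00), Guca1b (3.00 against 4.33) and Abca4 (11.3 against 16). None of the 10 cone genes was separated, and 1 of the 10 transcription factor genes was, Rorb (8.33 against 12.7). The median difference at 18mo was -1.0 peaks over the 9 members and -0.33 over all windows. It was -0.667 for the other rod genes and for the transcription factor genes, and -0.333 for the cone genes.

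The 18mo difference of Cngb1 moved with list length. The IOP lists held 36011 to 48723 peaks and the contralateral lists 51166 to 60755, and with the 36011 strongest peaks taken from every list the difference was -0.33 peaks instead of -3.0. Counted per 10000 listed peaks, Cngb1 had 1.38 ± 0.324 after IOP and 1.59 ± 0.0456 in contralateral retinas, and the groups overlapped. Within the short class there were 7 peaks in 1 IOP library and a mean of 9.5 in 2 contralateral libraries, and within the long class a mean of 5.5 in 2 IOP libraries and 8 in 1 contralateral library. No single region accounts for the difference. At 18mo a peak was listed at -722 (chr8:95307148-95307401, median list percentile 15.8) in 3 of 3 contralateral and 0 of 3 IOP libraries, and at -6436 (percentile 41.2) in 2 and 0. At 3mo the -722 region was listed in 1 contralateral and 2 IOP libraries, and the -6436 region in 1 and 1.

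Across both ages no member window passed (1.19% of 16523 windows had an exact stratified permutation p below 0.05), the lowest being Pde6b with 5.17 peaks after IOP and 6.67 in contralateral retinas (difference -1.5, exact permutation p = 0.19). For the effect of IOP by age no member passed either (0.309% of windows did), but with 3 libraries in each group this test has little power and does not show that the ages responded alike. Grk1 was the nearest (difference of differences -1.67, exact permutation p = 0.17). No member passed the adjusted threshold in limma in any of these comparisons, and Grk1 alone had an unadjusted limma p below 0.05 for the effect by age. Of 6 consensus regions of the windows that could be tested across ages none passed (5.04% of 5572 in the series), the smallest exact p being 0.095.

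Single regions that were called in all 3 libraries of 1 group and none of the other were rare. At 3mo 1 of the 76 regions was lost after IOP (0.241% of all consensus regions), the intronic Cngb1 region at +17363 (chr8:95289040-95289759), and none was gained (0.217%). At 18mo 2 of 76 were lost (2.23%), Cngb1 at -722 and Pde6g at +6070 with its summit just past the gene end (chr11:120447238-120447679, percentile 15.2), and none was gained (0.239%). With stricter peaks (−log10 q of at least 4), equal numbers of peaks or 50% of the region covered, the loss at 3mo was 0 each time and that at 18mo 0, 1 and 1, and it was 5 without 18mo contralateral replicate 2 or without 18mo IOP replicate 1. The ages did not share a lost region: at 18mo the +17363 region was listed in 2 contralateral and 1 IOP libraries. Each of the 3 was a weak peak, the +17363 region having a median percentile of 15.1. The 200 bp around the median summit of both Cngb1 regions are printed here on the strand of the gene (GRCm38.p6), since they were the regions of Cngb1 with a complete loss at 1 age. The strongest summits of the libraries had an SD of 215 bp at +17363 and 46.4 bp at -722. The bases printed for +17363 therefore need not hold the summit of a given library.
Cngb1 +17363 (chr8:95289122-95289321): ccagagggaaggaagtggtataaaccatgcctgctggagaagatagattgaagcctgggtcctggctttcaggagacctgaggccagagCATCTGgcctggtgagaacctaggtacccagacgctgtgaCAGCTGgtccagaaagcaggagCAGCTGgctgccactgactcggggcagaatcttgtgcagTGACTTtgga
Cngb1 -722 (chr8:95307207-95307406): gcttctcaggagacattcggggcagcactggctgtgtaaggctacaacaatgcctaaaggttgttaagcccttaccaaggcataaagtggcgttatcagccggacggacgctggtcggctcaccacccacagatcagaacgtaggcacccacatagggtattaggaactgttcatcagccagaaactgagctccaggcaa
The intronic sequence held 3 CAGNTG matches and 1 AAGTCA match, in capitals, and the upstream sequence none of the 5 motifs.

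Most differences that passed a test in these windows lay between the 2 kinds of control. Gnat1 had 6.50 peaks in untreated and 4.00 in contralateral retinas (difference 2.5, exact permutation p = 0.01) and Pde6b 10.8 and 6.67 (difference 4.17, exact permutation p = 0.015). With equal numbers of the strongest peaks the difference of Gnat1 was 1.83 (exact permutation p = 0.06) and that of Pde6b 2.67 (exact permutation p = 0.045). These 2 of 9 windows stood against 7.26% of all windows that were higher in untreated retinas at that level. Neither passed after Benjamini-Hochberg adjustment of the exact permutation test (adjusted p = 0.312 for both), which 400 arrangements could pass only if 1660 windows reached the smallest p. In limma, fitted over all windows, the log2 differences were 0.62 ± 0.15 for Gnat1 and 0.63 ± 0.18 for Pde6b (SE), with limma adjusted p = 0.0242 and 0.0455, and 1254 windows were higher and 184 lower in untreated retinas. Of the other rod genes 5 of 17 had more peaks in untreated retinas at an unadjusted exact permutation p below 0.05 (Rgs9bp, Gnb5, Gucy2e, Slc24a1 and Pdc, by 1.5 to 3.0 peaks) and Guca1a had fewer (-1.0).

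The covered length went the other way. It was lower in untreated retinas in 6 of 9 windows by the exact permutation test with adjustment, where 71.3% of all windows were, so the members did not stand out. The differences were -1313 bp in Pde6a, -894 bp in Cngb1, -695 bp in Pde6g, -650 bp in Cnga1, -602 bp in Grk1 and -570 bp in Pde6b (adjusted exact permutation p between 0.0111 and 0.0244). Gnat1 differed by -45.7 bp, Rcvrn by -121 bp and Sag by -560 bp, with adjusted exact permutation p = 0.781, 0.373 and 0.0838. Pde6b thus had more but shorter pieces in the untreated lists, and the direction of its difference depends on whether pieces or bases are counted. Gnat1 had more pieces over a similar length, at 1579 bp in untreated against 1735 bp in contralateral retinas at 3mo. At 18mo the order was turned, at 1787 against 1722 bp.

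Calls of single regions were compared between the kinds of control as well, and their part in the window differences was not computed. Among 10 consensus regions of the windows whose calls could reach a p below 0.05, 3 were called more often in untreated retinas (9.36% of 6205 regions in the series) and 1 less often (8.83%), all with an exact stratified p = 0.02 and an adjusted p = 0.110. Gnat1 at -8856 (chr9:107688490-107688649) and Pde6b at +33392 in an intron (chr5:108421668-108421876) were each called in 6 of 6 untreated and 1 of 6 contralateral libraries. Rcvrn at +4260 in an intron (chr11:67699523-67699762) was called in 5 of 6 and 0 of 6, and Grk1 at -971 (chr8:13403891-13404287) in 0 of 6 and 5 of 6. None of these 4 passed when the same number of strongest peaks was taken from each list. The 3 regions that were called more often in untreated retinas are printed for the 200 bp around the summit, on the strand of the gene.
Gnat1 -8856 (chr9:107688468-107688667): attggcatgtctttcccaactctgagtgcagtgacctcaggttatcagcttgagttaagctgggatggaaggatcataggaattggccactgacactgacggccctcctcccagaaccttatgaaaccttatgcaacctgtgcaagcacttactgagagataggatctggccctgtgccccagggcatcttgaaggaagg
Pde6b +33392 (chr5:108421683-108421882): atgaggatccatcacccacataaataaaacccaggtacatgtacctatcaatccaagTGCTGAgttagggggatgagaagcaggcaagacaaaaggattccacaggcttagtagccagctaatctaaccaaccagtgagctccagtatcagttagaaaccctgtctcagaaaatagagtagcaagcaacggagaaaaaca
Rcvrn +4260 (chr11:67699486-67699685): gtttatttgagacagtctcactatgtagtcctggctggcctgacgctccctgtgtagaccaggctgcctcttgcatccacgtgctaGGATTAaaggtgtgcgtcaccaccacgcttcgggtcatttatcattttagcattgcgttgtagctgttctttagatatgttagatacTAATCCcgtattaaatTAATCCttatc
The Rcvrn region held 3 TAATCC matches, the Pde6b region 1 TGCTGA match and the Gnat1 region none of the 5 motifs. A further region, Pde6b at +5578 (chr5:108393888-108394063), was called in the 3 libraries of 18mo untreated retina and in none of the other 15. It was noted after its values were seen. The share of all consensus regions called in 1 group alone was not computed, so its rarity is unknown.

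**Figure D4:**
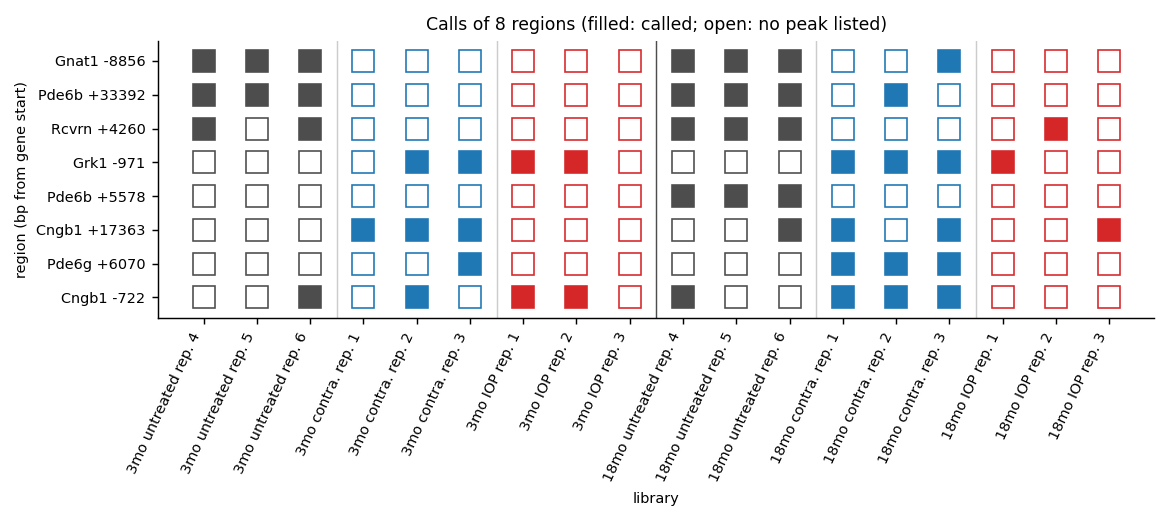
Calls of 8 regions of the windows in each library, with filled squares where a peak was listed and open squares where none was (grey untreated, blue contralateral, red IOP). The upper 3 regions are filled in 5 or 6 of the 6 untreated libraries and in at most 1 contralateral library, Grk1 at -971 shows the opposite, and the lower 3 are the regions lost after IOP at 3mo or 18mo.

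For the regions that every library called, the calls carry no difference, and their rank was compared instead. All 24751 such regions of the series were ranked by −log10 q within each library, and the rank is given as a percentile among them, so that every list contributes the same regions. The rank can still move with the class of the list, as Gnat1 at -5725 ranked at 8.34 to 21.8 in the 5 short-class and at 0.267 to 4.71 in the 7 long-class libraries. Among the 27 member regions 2 differed between ages at an unadjusted exact permutation p below 0.05 (8.13% of all regions), both lower at 18mo: Pde6a at -7151, at percentile 47.4 against 56.2 (difference -8.82, exact permutation p = 0.0108), and Grk1 at +1154, at 29.4 against 38.7 (-9.37, exact permutation p = 0.0476). Neither passed adjustment (exact permutation adjusted p = 0.413 and 0.605), and when single libraries were left out the exact permutation p of Grk1 at +1154 reached 0.106 and that of Pde6a at -7151 0.0195. The number of member regions below 0.05 then ranged from 1 to 7, the 7 being without 3mo contralateral replicate 2, the longest list. The median difference over the 27 was -3.01 percentile points, against -0.123 over all regions. It was -2.48 for the other rod genes, -3.20 for the photoreceptor transcription factor genes and 0.625 for the cone genes.

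After IOP, 6 of 27 member regions had a different rank across both ages at an unadjusted exact permutation p below 0.05, beside 8.14% of all regions. In the windows of the other rod genes, 4 of 59 regions called in all 18 libraries were higher and 3 lower at that level. For the transcription factor genes 3 of 47 were higher and 1 lower, and for the cone genes 0 of 15 were higher and 3 lower. The start of Gnat1 was higher, at percentile 60.4 after IOP against 51.1 (difference 9.25, exact permutation p = 0.025), as was that of Cngb1, at 59.0 against 55.2 (3.72, exact permutation p = 0.025). The intronic regions of Grk1 at +1154 (40.4 against 29.6, exact permutation p = 0.02) and of Pde6a at +26007 (56.3 against 50.4, exact permutation p = 0.045) and the region upstream of Pde6g at -4581 (42.2 against 32.3, exact permutation p = 0.04) were higher as well. The Cnga1 region at +1471, at the RefSeq start, was lower (19.0 against 29.9, exact permutation p = 0.01). Its ranks were 35.3, 20.7 and 23.4 in contralateral and 21.6, 10.7 and 12.2 in IOP retinas at 3mo, and 29.8, 31.9 and 38.0 and 27.3, 24.5 and 17.7 at 18mo, so the libraries overlapped at 3mo and not at 18mo. None passed adjustment over the 24751 regions, where the smallest adjusted exact permutation p was 0.332, so the 6 remain unadjusted differences. When each library was left out in turn, Cnga1 at +1471 and the Cngb1 start kept an exact permutation p of at most 0.025 and 0.045, whereas the p of the other 4 reached 0.065 to 0.1. For Gnat1, the start region ranked at 50.2, 49.7 and 45.9 in 18mo contralateral and at 63.9, 59.7 and 60.7 in 18mo IOP retinas, while at 3mo the values were 57.0, 42.6 and 61.2 and 53.2, 61.7 and 62.9. The separation was complete at 18mo and absent at 3mo. Within the classes at 18mo the means were 63.9 after IOP against 48.1 in the short and 60.2 against 49.7 in the long class, and at 3mo 53.2 against 42.6 and 62.3 against 59.1. Cnga1 at +1471 and the Cngb1 start kept their direction in 3 of the 4 combinations of age and class but not in the 3mo short class, where the ranks after IOP and in the contralateral library were 21.6 and 20.7 for the first and 58.0 and 59.0 for the other. However, no member region differed between ages in its IOP effect at an unadjusted exact permutation p below 0.05 (2.98% of all regions), a test with little power at 3 libraries a group.

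At single ages, where 3 libraries met 3, 2 member regions were higher in all 3mo IOP libraries (Cnga1 at -3456 and Grk1 at +1154, 4.17% of all regions) and 1 was lower (Pde6a at -7151, 3.87%). At 18mo 5 were higher (8.42%), namely the starts of Gnat1 and Cngb1, Gnat1 at +1236, Pde6a at +26007 and Cngb1 at -4147, and 1 was lower (7.70%), Cnga1 at +1471. The largest of these was Gnat1 at +1236, at 18.8, 24.7 and 20.1 in contralateral and 30.9, 45.4 and 41.4 in IOP retinas. None of the 27 regions was separated at both ages. The median difference over the 27 was 0.436 percentile points at 3mo and 3.25 at 18mo, against 0.0162 and 0.0478 over all regions.

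Between the kinds of control 4 of 27 ranks differed after adjustment, 3 higher in untreated retinas (10.8% of all regions) and 1 lower (11.7%). Over all regions 5550 of 24751 ranks differed, so the members did not stand out. Both early regions of Cnga1 were higher in untreated retinas. The region at +475 stood at 57.6, 59.6 and 52.6 in 3mo and 57.0, 50.0 and 48.9 in 18mo untreated retinas, and at 41.1, 28.6 and 42.6 and 29.4, 24.2 and 36.5 in the contralateral ones, without overlap (difference 20.5 percentile points, adjusted exact permutation p = 0.0309). The region at +1471 differed by 12.9 and Cngb1 at -4147 by 9.55, while the intronic Cngb1 region at +51549 was lower by 6.60 (-6.60), each with an adjusted exact permutation p = 0.0309. With single libraries left out, the adjusted exact permutation p of Cnga1 at +1471 reached 0.0692 and that of Cngb1 at +51549 0.0528, while Cnga1 at +475 (0.0423) and Cngb1 at -4147 (0.0493) stayed below 0.05. Cngb1 thus had a region that was higher and another that was lower.

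**Figure D5:**
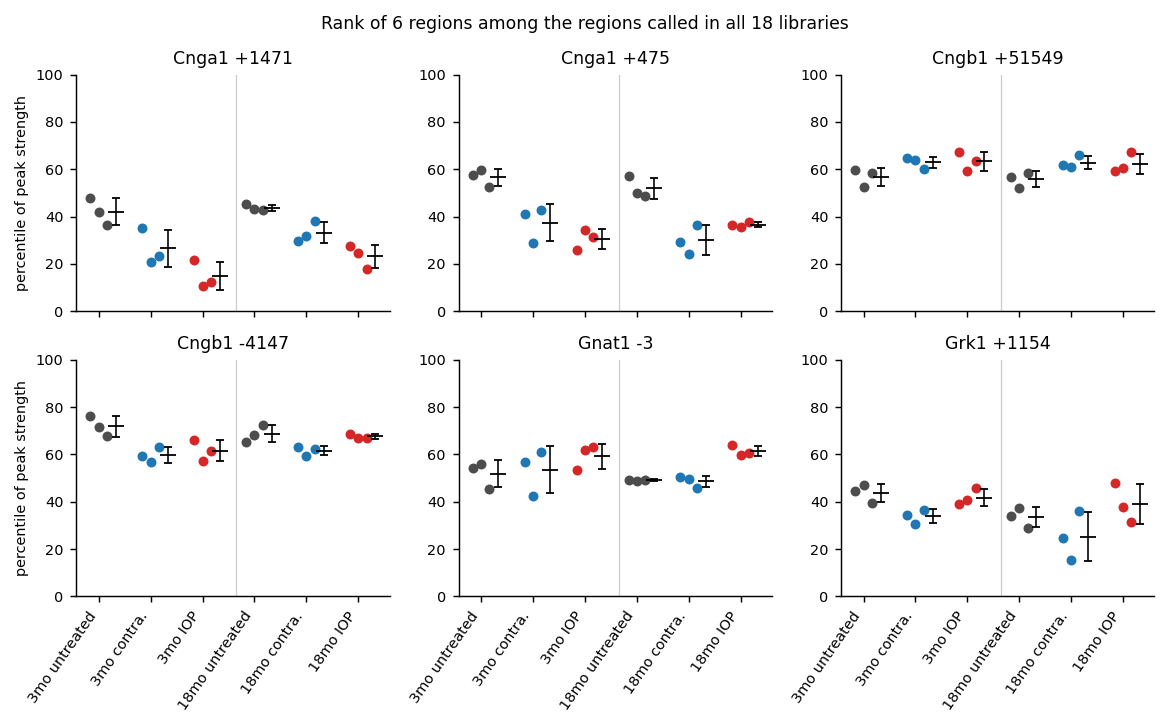
Percentile of peak strength of 6 member regions among the 24751 regions called in all 18 libraries, by group, with libraries as points and the mean ± SD of 3 libraries as bars. Both Cnga1 regions are higher in untreated libraries (grey) than in contralateral (blue) ones, the Cngb1 regions at -4147 and +51549 differ in opposite directions, and the Gnat1 start is higher in IOP (red) than in contralateral libraries at 18mo, with means of 61.4 and 48.6.

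The share of each list that fell in the 9 windows was compared with that of 16652 other protein-coding windows across the 18 libraries. The genes most alike were Jade2 (Pearson r = 0.882), Mcm5 (0.878) and Fam228a (0.876), given as a description of 18 lists that also share their length and peak width. Their windows held 2 to 13, 1 to 3 and 0 to 2 peaks.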

How the data were processed

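ATAC-seq was performed on bulk retina and 18 peak lists, 1 per library, were analysed. The submitters' processing notes name STAR 2.7.8a, MACS2 and the mm10 build, and the authors called peaks with MACS2 at a q-value of at most 0.05 in each library without pooling. Each deposited list gives a score (the whole part of 10 times −log10 q, as computed by the authors' peak caller), the fold over the local background as a ratio, and −log10 p and −log10 q, all made by the authors. The lists hold no read counts, so read depth is unknown here and the study's read-count model (edgeR) could not be used; the 36011 to 66160 peaks per list limit the precision. The extraction text in the labels describes chromatin immunoprecipitation, whereas according to the methods nuclei of fresh tissue were transposed.

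The 9 members, the comparison lists and the region rules were chosen with earlier results of these data known. Windows (GENCODE M21, 10 kb upstream to the gene end), merged regions (1 bp overlap, consensus in at least 2 libraries) and calls were computed with Python 3.11.15, numpy 2.4.6, pandas 2.3.3 and scipy 1.17.1. Age was tested over 6 against 6 control libraries by exact permutation (924 arrangements, smallest p 0.00216), IOP across ages and kind of control by permutation within ages (400 arrangements, smallest p 0.005), IOP at each age by 20 arrangements, and region calls by Fisher's exact or age-stratified exact tests, with Benjamini-Hochberg adjustment over all windows or regions. All members, their start regions, their highest-ranked other regions, and regions with an unadjusted p below 0.05 or called in 3 of 3 against 0 of 3 libraries were named, as were listed comparison genes with an unadjusted p below 0.05. limma 3.58.1 on log2(peaks + 1), covered length as a result of its own, alternatives for the 3-against-3 region losses and the rank among the 24751 regions called in all libraries were added after the lists were read. The rank was first taken over whole lists and was replaced because it moved with list length. The exact tests on windows, region calls and ranks and the limma fit were tested on simulated data. With 200 changed features in each simulation, the exact tests passed none of them after adjustment. A member that fails adjustment in an exact test is therefore not shown to be unchanged. Replicate numbers were not used to pair libraries. Sequences and promoters are from RefSeq (GRCm38.p6); 5 of 9 members matched.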

Additional observations from a re-analysis of the deposited data

Results flagged for a closer look

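Sets of 6 control libraries of 1 age were examined for the ranks of member regions and for the peak counts of the windows. In 4 of 74 sets the outermost library lay farther from the other 5 than Dixon's limit of 0.625 of the range allows. All 4 were sets of ranks. Chance gives about 1 in 20 for 6 like libraries, but each set here mixed untreated and contralateral retinas. The Pde6a region at -2850 ranked at 8.37 in 3mo contralateral replicate 2, and the nearest of the other 3mo control libraries at 33.1. In the same library Pde6b at +1495 ranked at 19.4, with 46.6 the nearest. The Pde6a start ranked at 81.8 in 3mo untreated replicate 5, with 69.2 the nearest, and the Gnat1 start at 45.9 in 18mo contralateral replicate 3, with 48.7 the nearest. The 3mo contralateral replicate 2 had the longest list of the series (66160 peaks), and its part in these values was not tested. No member differed between ages in its response to IOP by the exact permutation test of that difference.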

How the results depend on the processing

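The alternatives were stricter peaks (−log10 q of at least 4), the 36011 strongest peaks of each list, overlap by at least 50% of a peak or region, windows from 1 kb upstream, peaks per 10000 listed, covered length and each library left out, and, chosen after seeing the data, limma, and the alternatives for region losses and ranks. At 18mo the count of windows lower after IOP (1) became 0 with equal numbers of peaks, with 1 kb windows, per 10000 peaks and in limma. Across ages it became 1 with strata by age and class, and the effect by age 1 in limma. Between the controls the 2 windows became 6 by covered length, where Pde6b reversed (-570.5 bp) and Gnat1 no longer passed (-45.7 bp), and 4 in limma. The 4 region calls between controls became 0 with equal numbers of peaks, and the count by age 1 when 50% of the region had to be covered. The 1 loss at 3mo became 0, 0 and 0, and the 2 at 18mo 0, 1 and 1, with stricter peaks, equal numbers and 50% of the region covered. The difference of summed peaks at 18mo after IOP reversed to +0.935% with equal numbers. Ranks by fold gave 1 region by age. The cause was not tested. Leaving out single libraries gave these ranges: windows by age 0 to 1 (1 without 18mo contralateral replicate 2), after IOP 0 at 3mo and 1 to 2 at 18mo (2 without any 1 of the IOP libraries; Cngb1 -3.5 to -2.5), across ages 0 to 1 (1 without 3mo IOP replicate 1), by age of the effect 0, and between controls 2 to 4 (4 without 3mo untreated replicate 5), with 5 to 7 by covered length. Region calls gave 0 by age, 0 to 1 after IOP (1 without 3mo contralateral replicate 1 or 2, 18mo contralateral replicate 2 or 18mo IOP replicate 3) and 4 to 6 between controls, and region losses 1 at 3mo and 2 to 5 at 18mo (5 without 18mo contralateral replicate 2 or IOP replicate 1). Ranks gave 1 to 7 by age (7 without 3mo contralateral replicate 2), 4 to 6 after IOP, 0 to 2 for the effect by age (2 without the same library) and 2 to 5 between controls (2 without 3mo untreated replicate 5). Same-numbered IOP and contralateral libraries correlated between -0.174 and 0.183, so the numbers were not taken as pairs. With a replicate block, 0 windows at 3mo and 1 at 18mo (Cngb1) moved the same way in all 3 numbers, 0 windows and 0 regions passed across ages, and 1 rank did (Cnga1 at +1471). List length and peak width, rather than a known read depth, limit these results.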

Other observations

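The strongest summit in the start region of Pde6g took 1 of 2 positions. In the 3 libraries of 18mo contralateral retina it lay between 16 bp upstream and 0 bp from the start, and in the 3 of 18mo IOP retina between 1026 and 1055 bp downstream. In the other 4 groups both positions occurred, the summits ranging from -43 to 1014 bp in 3mo contralateral, 29 to 1082 bp in 3mo IOP, 17 to 1089 bp in 3mo untreated and -16 to 1045 bp in 18mo untreated retinas. This was noted after the values were seen and was not tested. How often the strongest summit separates 3 libraries from 3 in other regions of the series was not counted, so its rarity is unknown.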
